A study of Arabidopsis thaliana with 9 samples.

Results

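SQN (SQUINT, locus AT2G15790 on chromosome 2) is the cyclophilin 40 gene of Arabidopsis thaliana. Its RNA was measured on Affymetrix ATH1 arrays, where several short probes (together a probe set) read a transcript in a single colour, in whole plants of a wild-type control, line774 and line1135. SQN is 1 gene of the 13356 that are named by a probe set with a single gene, and it was picked out because its signal on 1 probe set was higher by different amounts in the mutant lines. Those signals are therefore given below as a description and carry no test. The genes that flank SQN by locus number, other cyclophilins and genes of its pathway were not chosen by their signals and were tested.

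Each group had 3 arrays, 9 in all, which limits the precision of every value. All plants were taken at growth stage 1.04 after 17 days at 21 °C, with 16 h light and 8 h dark and 50 seeds to a plate. A label of a T-DNA knockout stands on all 9 samples, the control included, and the labels used here give no mutated gene for either line, so no target gene could be checked. No label says that the 3 samples of a group are from separate plates or sowings, so the spread behind each p-value is that between these samples and may be technical. In these bulk samples, a change in the share of cells that express a gene and a change in its RNA per cell cannot be told apart. Of 4 tissue markers, PYK10 (root) and psbB and psaC (plastid genes of green tissue) lay above background on all 9 arrays and EXPA7 (root hairs) on 7. None of the 4 passed the test described below in either line. In line774, however, the groups did not overlap for psbB, with mean signals (± SD, n = 3) of 1178 ± 255 for the control and 764 ± 203 for the line (log2 difference -0.63 ± 0.19, limma adjusted p = 0.0531). The same was true of EXPA7, at 8.73 ± 4.04 and 18.4 ± 2.85 (0.49 ± 0.16, limma adjusted p = 0.0808). Such a lack of overlap between line774 and the control was common, at 30.7% of all probe sets (17% higher, 13.7% lower). The part of these markers in the line774 results was not tested.

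Cyclophilins are enzymes that turn the peptide bond before a proline. SQN carries such a domain together with tetratricopeptide repeats, which bind the chaperone HSP90, and in Arabidopsis it is known to promote the activity of AGO1, the protein that silences target RNAs with microRNAs. Plants that lack SQN pass early from juvenile to adult leaves, with raised levels of the SPL transcription factors that miR156 normally holds low. No protein, promoter or probe sequence was used here.

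On the brighter of its probe sets the SQN signal, in the arrays' linear units, was 68.0, 63.9 and 55.0 on the 3 control arrays. It was 117, 176 and 128 on the line774 arrays and 625, 819 and 730 on the line1135 arrays. The groups did not overlap: all control arrays lay below all line774 arrays, and these below all line1135 arrays. The lowest line774 array was 1.72 times the highest control array, and the lowest line1135 array was 3.55 times the highest line774 array. Each array was also well above its background, taken as the brightest of 27 Bacillus control probe sets, whose value ran from 5.36 to 13.4 over the arrays.

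Group means of the SQN signal (± SD, n = 3) were 62.3 ± 6.65 for the control, 140 ± 31.4 for line774 and 725 ± 97.0 for line1135. The mean signal was thus 2.25 times the control in line774 and 11.6 times the control in line1135, and 5.17 times as high in line1135 as in line774. Relative spread was widest in line774, where the coefficient of variation was 22.4%, against 10.7% in the control and 13.4% in line1135. On the scale used for all tests here, log2(signal + 16), SQN differed from the control by 0.98 in line774 and by 3.24 in line1135, and between the lines by 2.26. The replicate SD on that scale, pooled over the groups, was 0.21. The difference in line774 was 30.3% of that in line1135 on the log2 scale and 11.8% of it in linear signal.

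**Figure D1:**
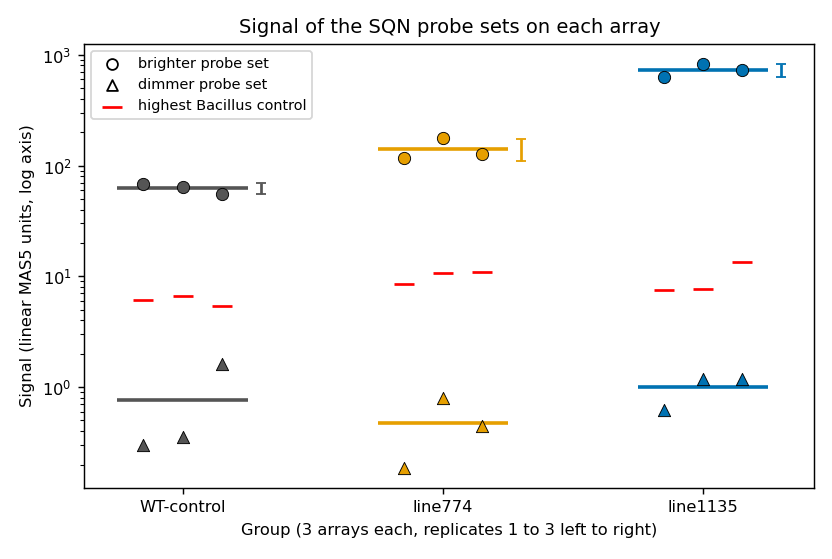
Signal of the brighter (circles) and the dimmer (triangles) SQN probe set on each of the 9 arrays, on a log axis in linear signal units; horizontal lines are group means, error bars are ± 1 SD of the 3 arrays for the brighter one, and red dashes are the brightest Bacillus control of each array. The circles climb from 55.0 to 68.0 in the control to 625 to 819 in line1135, while every triangle lies under the red dash of its array.

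The platform annotation assigns 2 probe sets to SQN, and they disagree. The other one was dim. Its signals were 0.298, 0.357 and 1.63 in the control, 0.188, 0.795 and 0.443 in line774 and 0.616, 1.18 and 1.20 in line1135. All 9 values were below background, and the groups overlapped. The SQN values used here therefore come from a single probe set. The part of the transcript that each probe set reads is not given in the sources used here. In the RefSeq gene table (TAIR10.1), 1 locus overlaps the span of SQN, the pseudogene AT2G15800, which is next to it in locus number, and no probe set is annotated to AT2G15800 here.

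The pattern of SQN was set against all 22746 probe sets tested. In 264 of them, or 1.16%, every control array lay below every line774 array and every line774 array below every line1135 array, and in 226, or 0.994%, the order ran the other way. Of the 264 in rising order, 88 belonged to a locus that the gene table types as a pseudogene and 77 to a protein-coding gene, SQN included, while 99 had no single named gene. Among the 226 in falling order, 106 were protein coding and 0 were of a pseudogene type. Of all 13513 probe sets with 1 named gene, 12443 were of a protein-coding gene. A probe set at background in the control cannot be seen to fall, and how many pseudogenes were so was not counted.

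Large steps between the groups were rare, and 14 other probe sets had both steps at least as large as those of SQN. Of these, 12 were of a pseudogene type and 13 were probe sets of the kinds (_s_at, _x_at) whose probes also match other loci. Without those kinds, 21685 of the 22746 probe sets remained, so they were few on the array. Whether the 13 read the same transcripts was not tested, so the 14 need not be separate cases. The exceptions to the pseudogene type were AT1G36240 and AT1G59930, annotated as protein coding and named here after their values were seen. Mean signals of AT1G36240 were 7.59, 111 and 894 in the control, line774 and line1135. On the control arrays, 7 of the 14 never exceeded background, 5 were above it on 1 or 2 arrays, and 2 were above it on all 3, as SQN was.

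Over all 22746 probe sets, SQN ranked 51st by the log2 difference of line1135 from the control. By that of line1135 from line774 it ranked 24th, and by that of line774 from the control 245th. A narrower set was the 8531 probe sets of 1 protein-coding gene that were above background on all 3 control arrays. Among these, SQN had the largest difference of line1135 from the control and of line1135 from line774. In line774 against the control it ranked 65th. Over all 12443 probe sets of 1 protein-coding gene, whatever their control signal, it ranked 6th, 3rd and 97th in the same order of comparisons. The probe sets ahead of it in line1135 against the control were AT1G59930 (5.91), AT1G36240 (5.27), AT4G29200 (3.96), AT5G01080 (3.82) and AT5G07570 (3.57), as log2 differences. These ranks use the contrasts by which SQN was picked and describe only its place in this series.

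The next question was whether genes beside SQN moved with it. The gene table lists 22 loci from AT2G15700 to AT2G15900 apart from SQN, 12 protein coding and 10 of a pseudogene type, and 12 of the 22 were measured by a probe set of their own. None of the 12 was higher in either line than in the control at an adjusted p under 0.05 (limma, adjusted over all probe sets), and 1, AT2G15830, was lower in line1135. Over all probe sets, 12.6% passed in line774 (6.6% higher, 6.01% lower) and 13.6% in line1135 (6.74% higher, 6.86% lower). The medians of the 12 were 0.00 in line774 and -0.03 in line1135, against 0.02 over all probe sets in each comparison. At an unadjusted p under 0.05, 1 of the 12 passed in line774 and 4 in line1135, where 25.3% and 26.4% of all probe sets did.

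The measured loci next to SQN on either side, the protein-coding AT2G15780 and the pseudogene AT2G15810, did not exceed background on any of the 9 arrays. Signals of AT2G15780 ran from 0.369 to 1.07 in the control, from 0.504 to 2.89 in line774 and from 0.845 to 3.28 in line1135. Those of AT2G15810 did not exceed 4.44 on any array. AT2G15700, a pseudogene, and AT2G15740, a protein-coding gene, were also at or below background throughout, and none of these 4 passed. The pseudogenes AT2G15720 and AT2G15870 were above background on 2 arrays and 1 array, with adjusted p of 0.109 and 0.141 in line1135.

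AT2G15830, a protein-coding gene, went the opposite way to SQN. Its signals were 45.0, 46.5 and 34.4 in the control, 29.2, 35.3 and 23.5 in line774 and 19.4, 16.1 and 11.5 in line1135. The line1135 arrays lay below all others, and those of line774 and the control overlapped. The log2 difference from the control was -0.87 ± 0.16 (SE) in line1135, with an adjusted p of 0.00432 (limma), and -0.36 ± 0.16 in line774 (adjusted p = 0.189). The line1135 call held under each of 19 other fits, with a limma adjusted p between 0.00104 and 0.0235. On the log2(signal + 16) scale its size was under 2-fold, so a 2-fold minimum on that scale removed it. In linear signal the line1135 mean was 0.374 times the control mean, a larger fall, and at an offset of 1 the log2 difference was -1.38. The lines themselves were not shown to differ (-0.52 ± 0.16, adjusted p = 0.145).

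The other 5 neighbours above background on at least 5 arrays did not pass in either line. AT2G15860, protein coding, had signals of 83.2, 94.2 and 87.5 in the control, 96.2, 104 and 109 in line774 and 90.4, 78.1 and 89.1 in line1135, and adjusted p-values of 0.241 in line774 and 0.869 in line1135. Its line774 arrays lay above all control arrays, as in 17% of all probe sets, and it was the 1 neighbour of which this held. AT2G15880, protein coding, had mean signals of 22.8 ± 6.26, 17.5 ± 1.64 and 10.0 ± 6.78 in the same order (SD, n = 3), with a log2 difference of -0.60 ± 0.20 in line1135 and an adjusted p of 0.0701. Its line1135 arrays lay below all control arrays. That held for 4 of the 12 neighbours in line1135, and for 14.4% of all probe sets. Among those 4, AT2G15740 did not exceed background on any array, and AT2G15720 exceeded it on 2 control arrays only. AT2G15760 differed from the control by 0.40 ± 0.19 in line774 and 0.16 ± 0.19 in line1135. AT2G15900 had differences of -0.24 ± 0.14 and -0.03 ± 0.14, and the pseudogene AT2G15750 of -0.03 ± 0.21 and -0.02 ± 0.21.

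**Figure D2:**
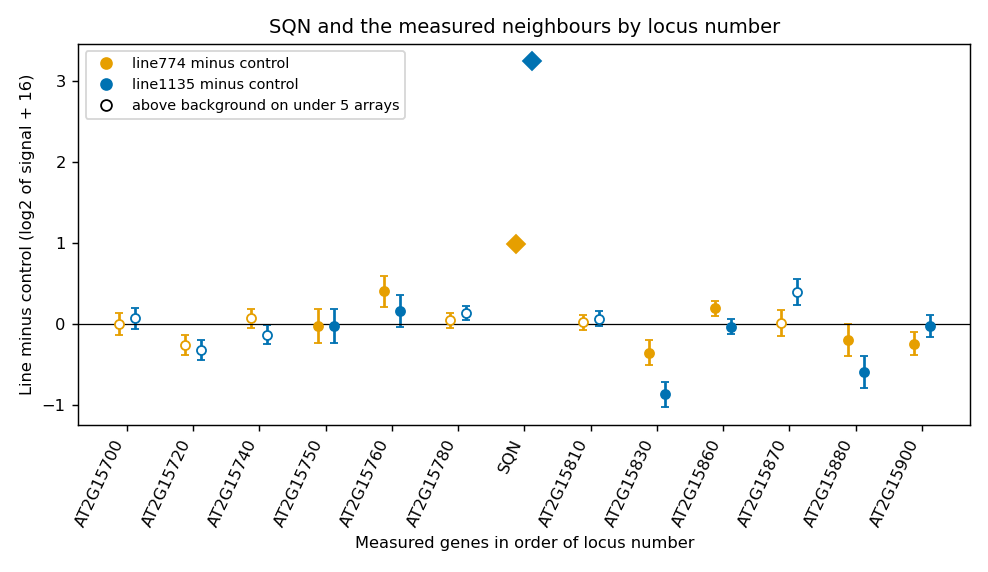
Log2 differences of line774 (orange) and line1135 (blue) from the control, on the log2(signal + 16) scale, for SQN (diamonds) and the 12 measured neighbours (circles) in order of locus number. Bars are standard errors from limma, open circles mark neighbours above background on fewer than 5 arrays, and SQN has no bar because it was not tested. SQN stands at 0.98 and 3.24, and the neighbours lie between -0.87 and 0.40.

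In a wider window, AT2G15500 to AT2G16100, 37 genes other than SQN were measured. At any fold, 6 (16.2%) passed in line774 and 5 (13.5%) in line1135, beside 12.6% and 13.6% of all probe sets. With a 2-fold minimum, 2 were higher and 1 lower in line774, and 3 were higher and 1 lower in line1135. Of all probe sets, 2% in line774 and 2.29% in line1135 passed that minimum in either direction. The genes that follow were named after their values were seen. The pseudogene AT2G15510 rose in line774 and again in line1135, with signals of 1.52, 1.60 and 7.34 in the control, 17.5, 30.2 and 14.6 in line774 and 58.4, 75.0 and 62.0 in line1135. It was the 1 gene of the 37 that differed between the lines (1.16 ± 0.19, limma adjusted p = 0.00961), where 2% of all probe sets did.

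AT2G15560, protein coding, rose in both lines, from 6.42 ± 3.66 in the control to 131 ± 14.3 in line774 and 122 ± 11.3 in line1135 (limma adjusted p = 5.33e-07 and 4.4e-07). Its difference between the lines was -0.09 ± 0.14 (adjusted p = 0.826). AT2G15940, a pseudogene read by an _s_at probe set, was below background on all control arrays (0.707 ± 0.266) and reached 32.8 ± 16.7 in line774 and 46.7 ± 17.0 in line1135 (adjusted p = 0.00293 and 0.00067). AT2G15960, protein coding, fell from 1522 ± 335 to 515 ± 19.7 and 466 ± 139. In line774, AT2G15500 was called higher although all its arrays were at or below background, and AT2G15695 fell, with a log2 difference of -0.51 ± 0.10.

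Other cyclophilins were listed by locus from general knowledge of the family, and 17 of the 27 listed genes were measured, all above background on all 9 arrays. In line774, 2 were higher, 2 were lower and 13 did not pass, and in line1135, 3 were higher, 0 were lower and 14 did not pass. These shares, 23.5% and 17.6%, stand beside 12.6% and 13.6% of all probe sets. Among the 17685 probe sets above background on at least 3 arrays, a closer base that was chosen after seeing the data, 18.96% passed in line774 and 19.9% in line1135, and the family counts there were again 4 and 3. Against that base the line774 share is higher and the line1135 share lower. None of the 17 both passed and reached 2-fold, where 2% of all probe sets did in line774 and 2.29% in line1135. Log2 differences ran from -0.55 to 0.43 in line774 and from -0.37 to 0.73 in line1135, with medians of 0.03 and -0.02. Between the lines 0 of 17 passed with limma, and 1 had an unadjusted p under 0.05, as did 14.8% of all probe sets.

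AT1G01940 had the largest increase of these cyclophilins in line1135. Its signals were 52.9, 82.6 and 60.0 in the control, 81.7, 104 and 91.3 in line774 and 105, 104 and 145 in line1135. The line1135 arrays lay above all control arrays, while line774 overlapped the control. Its log2 difference was 0.73 ± 0.16 in line1135 (limma adjusted p = 0.0116) and 0.43 ± 0.16 in line774 (adjusted p = 0.11). Without control replicate 1 the line1135 adjusted p was 0.0528.

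AT4G34960 was higher in both lines, by a log2 difference of 0.40 ± 0.11 in line774 (adjusted p = 0.0419) and 0.56 ± 0.11 in line1135 (adjusted p = 0.00837), from a control signal of 75.9 ± 7.72 (SD, n = 3). Its line774 call was lost under 11 of 19 alternatives, among them each single array left out apart from line774 replicate 2, with an adjusted p up to 0.137. AT2G47320 was higher by 0.35 ± 0.07 and 0.29 ± 0.07, with limma adjusted p-values of 0.00869 and 0.0201, from a control signal of 442 ± 29.7. Its line1135 call was lost with no intensity trend in the fit (adjusted p = 0.0587), without control replicate 1 or 3, and without line1135 replicate 2 or 3 (adjusted p up to 0.0780 over all alternatives).

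The cyclophilins that were lower were so in line774. AT1G74070 had signals of 69.5, 67.8 and 85.2 in the control, 44.4, 50.3 and 52.6 in line774 and 67.2, 68.6 and 71.5 in line1135. Its line774 arrays lay below all others, and the log2 difference was -0.47 ± 0.11 (limma adjusted p = 0.0188), lost without control replicate 3 or line774 replicate 1 (up to 0.0743). AT2G21130 had a log2 difference of -0.55 ± 0.15 (adjusted p = 0.0416), a call lost when any control or line774 array, or line1135 replicate 3, was left out (up to 0.14). It was also lost with the compared groups alone (0.0603) and with the replicate block (0.0609). The count of 4 in line774 fell to 1 without control replicate 3 or line774 replicate 1, and to 2 without control replicate 1, line774 replicate 3 or line1135 replicate 3. That of 3 in line1135 fell to 1 without control replicate 1.

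Of the 17, CYP59 and CYP71 carry a cyclophilin symbol in the annotation used here, and AT4G33060 (CYP57) is given beside them. CYP71, which is known to act on chromatin, had mean signals (± SD, n = 3) of 85.3 ± 6.73, 80.3 ± 8.80 and 87.5 ± 15.9 in the control, line774 and line1135. CYP59, a nuclear cyclophilin that binds RNA, had 29.1 ± 6.79, 24.7 ± 4.42 and 30.1 ± 3.76. AT4G33060 had 61.3 ± 16.9, 53.2 ± 3.02 and 53.0 ± 15.7. For these 3 genes the groups overlapped in every comparison, and the lowest adjusted p was 0.633.

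Partners of SQN were listed likewise, and 6 of 19 microRNA pathway and chaperone genes were measured by a probe set naming them. AGO1 and the HSP90 genes were not among those named and are not analysed here. In line774 0 of 6 passed, where limma gave 1 an unadjusted p under 0.05, and in line1135 1 of 6 (16.7%) did, close to the 13.6% of all probe sets. The gene that passed was Hop2, a co-chaperone with tetratricopeptide repeats that links HSP70 and HSP90. Its signals were 182, 236 and 183 in the control, 233, 266 and 250 in line774 and 293, 310 and 270 in line1135. The line1135 arrays lay above all others, with a log2 difference of 0.51 ± 0.10 (limma adjusted p = 0.00738), against 0.30 ± 0.10 in line774 (adjusted p = 0.0835). Under 19 other fits the line1135 call of Hop2 kept an adjusted p between 0.00220 and 0.0361, but a 2-fold minimum removed it.

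Hop3, a heat-inducible relative, had differences of 0.27 ± 0.21 and 0.54 ± 0.21 (adjusted p = 0.491 and 0.118), and Hop1 of 0.21 ± 0.12 and 0.12 ± 0.12. SE, a zinc-finger protein needed to process microRNA precursors, had mean signals (± SD, n = 3) of 65.8 ± 2.34, 64.05 ± 4.20 and 68.7 ± 1.91 in the same order. AGO7, an ARGONAUTE that also affects the timing of adult leaf traits, had 11.2 ± 1.34, 14.9 ± 1.20 and 18.7 ± 7.98, with adjusted p-values of 0.576 and 0.259. AT5G48570 (ROF2), an FK506-binding immunophilin, was above background on 2 arrays only.

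Of 19 SPL and other phase-change genes, 2 were measured by a probe set naming them alone. These were SMZ and SNZ, AP2-type repressors of flowering that miR172 targets. For the rest no such probe set was found, which does not show that the array lacks probes for them. SMZ had mean signals (± SD, n = 3) of 18.2 ± 9.34, 15.5 ± 2.69 and 13.9 ± 6.17, and its groups overlapped. SNZ was above background on 2 arrays. No SPL gene was among the probe sets named here, so nothing can be read about the SPL genes.

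**Figure D3:**
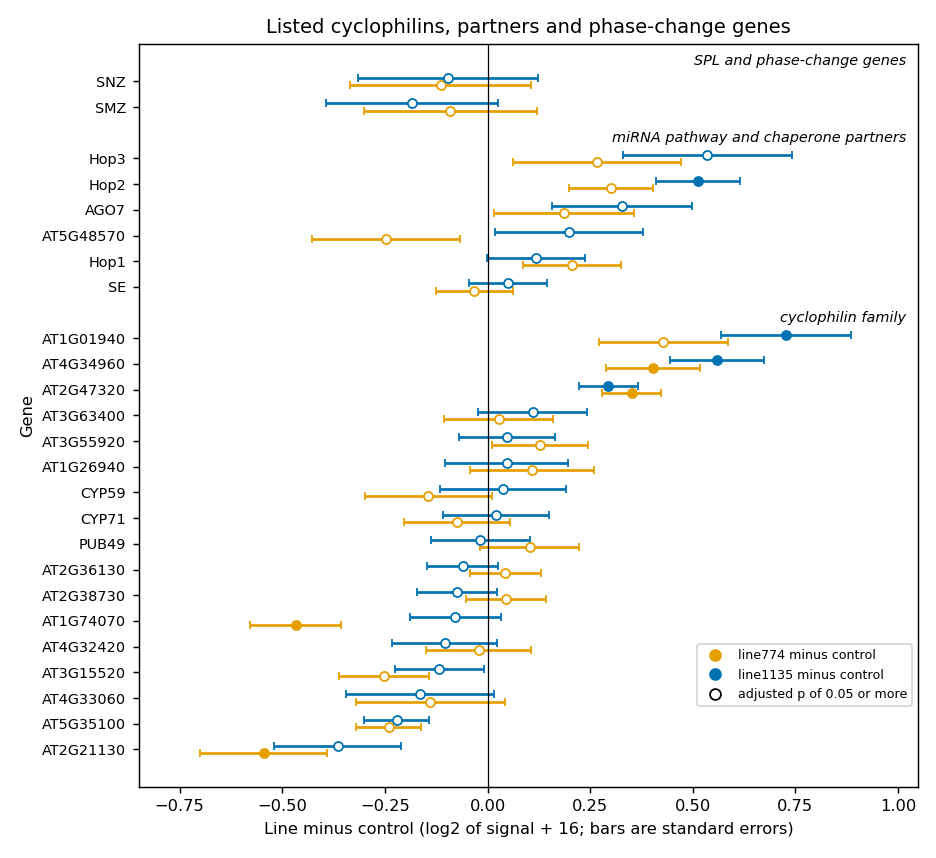
Log2 differences from the control on the log2(signal + 16) scale, with standard errors, for the 17 measured cyclophilins, 6 partners and 2 phase-change genes, in line774 (orange) and line1135 (blue). Filled points passed at an adjusted p under 0.05, and all points lie between -0.55 and 0.73, below the 0.98 and 3.24 of SQN.

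Probe sets were also ranked by how closely they followed SQN, using Pearson's r of log2(signal + 16) over the 9 arrays. The ranking covered 9879 probe sets with 1 named gene that were above background on at least 3 arrays, and it is a description, since the 9 arrays form 3 groups. The 10 closest had r between 0.985 and 0.994, and 7 of them were of a pseudogene type and 3 protein coding. Over all 9879, 3.05% were of a pseudogene type. That share is no fair base, because 7 of the 10 were at or below background on all control arrays. Such loci entered the ranking only through their signal in the lines. By Spearman's rho only 2 of these 10 were again among the closest 10, so the exact names depend on the measure.

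The closest was the pseudogene AT1G32830, with mean signals (± SD, n = 3) of 1.30 ± 1.82, 14.5 ± 4.52 and 96.0 ± 4.17 from control to line1135, followed by AT2G14140, AT3G31970, AT2G13000, AT2G20460 and AT4G04590, all pseudogenes. The protein-coding members were AT1G59930, AT5G07570 and AT5G28560, and the pseudogene AT1G12720 was the tenth. AT5G07570 had signals of 0.576, 0.883 and 0.928 in the control, 27.4, 46.9 and 32.0 in line774 and 147, 212 and 196 in line1135. Unlike SQN, 7 of the 10 did not exceed background on any control array, and 5 of the 10 had an _s_at or _x_at probe set. On chromosome 2 were 3 of the 10, and the share of that chromosome among all those compared was not counted.

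**Figure D4:**
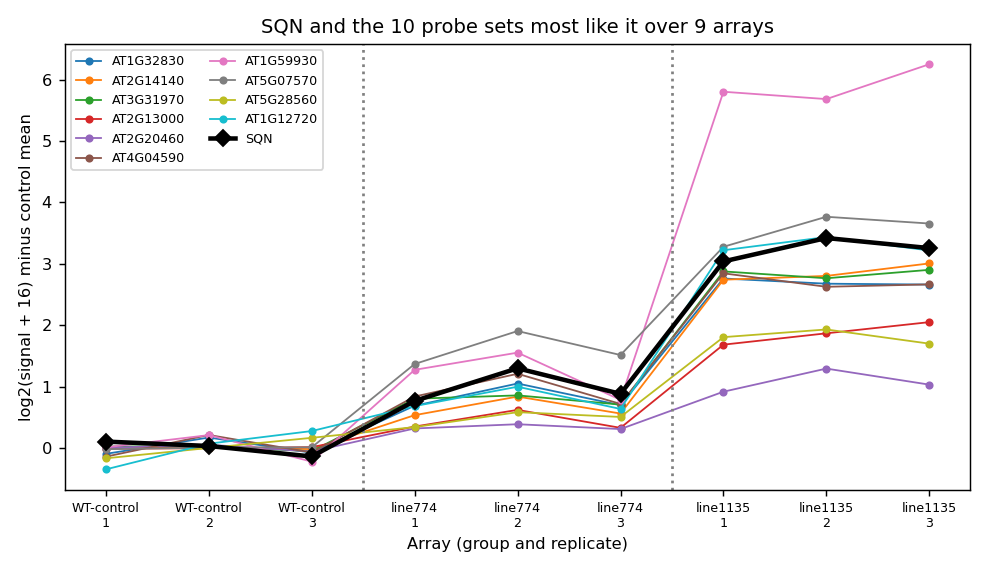
Log2(signal + 16) minus the control mean on each of the 9 arrays for SQN (black diamonds) and the 10 probe sets with the highest Pearson's r to it (coloured circles), whose lines only join the points of a gene. All 11 are near 0 in the control, intermediate in line774 and highest in line1135.

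An r of at least 0.9 with SQN was found for 145 probe sets, of which 93 (64.1%) were of a pseudogene type and 52 protein coding. Of all 9879 compared, 301 (3.05%) were of a pseudogene type. A locus at background in the control could enter this ranking only through its signal in the lines, so the filter itself favoured a pattern like that of SQN at such loci. Among the 145, 37 were protein coding and above background on all 3 control arrays, and the closest of these was AT2G17670 (r = 0.967), with log2 differences of 0.21 in line774 and 0.93 in line1135. An r of -0.9 or lower was found for 58, all protein coding and all above background in the control. Of the 9879, 9536 were protein coding, 8606 were above background on all 3 control arrays and 8530 were both. The lowest, -0.98, was that of AT5G43150, whose signal went from 164 ± 1.36 in the control to 107 ± 7.36 in line774 and 52.7 ± 8.81 in line1135 (SD, n = 3). Of the listed genes, Hop2 (r = 0.85), AT1G01940 (r = 0.82) and AT4G34960 (r = 0.77) followed SQN most closely and AT2G15830 (r = -0.89) ran most nearly opposite to it. These values share the same arrays and group steps, and points within a group are only 3.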

How the data were processed

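The authors deposited a linear intensity for each probe set. Per the submitters' processing notes, MAS5 and GCOS were used, in versions not stated there. Each array had a 2% trimmed mean of 100.01, so it had been scaled by a single factor. Of 22810 probe sets, 64 controls were left out and 22746 tested without a filter on low signal.

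Signals were transformed to log2(signal + 16), which understates changes of dim genes. With limma 3.58.1 (R 4.3.3), a model of the 3 group means took in all 9 arrays, followed by eBayes with an intensity trend. The Benjamini-Hochberg adjustment of each comparison covered all 22746 probe sets. A gene passed at an adjusted p under 0.05, at any fold. The fit was tested on simulated data. The 27 Bacillus control probe sets gave the background.

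Gene names came from the platform annotation and the RefSeq gene table (TAIR10.1); the arrays name no build, so no coordinates are given. A gene counted as measured only where a probe set was annotated to it alone, so a gene not measured here may still have probes on the array. Where a gene had several probe sets, the one with the highest mean signal was used. SQN, its neighbours, the gene lists and the tests were chosen with earlier results of these data known. Named were SQN, all measured neighbours, list members that passed or the 2 with the lowest p, the 10 probe sets closest to SQN and the lowest correlation; other genes were named for their role or after their values were seen. Alternatives were offsets of 1 and 64, quantile and median scaling, a filter at the 25th percentile, no trend, a fit of the compared groups alone, a replicate block, a 2-fold minimum, an adjusted p under 0.01, no shared probe sets, a wider window and each array left out. A test of only those above background on at least 3 arrays was chosen after seeing the data. No 2 arrays held identical values. Figures were drawn with matplotlib 3.10.9.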

Additional observations from a re-analysis of the deposited data

How the results depend on the processing

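SQN was higher in both lines, and in line1135 than in line774, under every alternative tried for it. Its log2 difference depended on the offset: at an offset of 64 it was 0.68 in line774, 2.64 in line1135 and 1.95 between the lines, and at an offset of 1 it was 3.52 in line1135. With single arrays left out it ran from 0.82 to 1.09, from 3.15 to 3.34 and from 2.15 to 2.41.

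Among the 12 neighbours, the count passing in line1135, 1 in the main analysis, was 3 after quantile normalization, 2 with the 25th percentile filter, 2 with only probe sets above background on at least 3 arrays, 0 with a 2-fold minimum, and 1 to 2 with single arrays left out (2 without line1135 replicate 1 or 2). The shares of all probe sets passing there were, in the same order, 13.7%, 20.6%, 19.9%, 2.29% and 8.42% to 13.3%. In the wider window the counts were 6 in line774, 5 in line1135 and 1 between the lines. Of the 12 neighbours, 0 to 1 passed between the lines with single arrays left out (1 without line1135 replicate 1), and 0 passed in line774.

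Cyclophilins passing in line774, 4 in the main analysis, numbered 2 with only the compared groups, 0 with a 2-fold minimum, 1 at an adjusted p under 0.01 and 1 to 3 with single arrays left out. In line1135 the 3 became 0 with a 2-fold minimum, 1 at an adjusted p under 0.01 and 1 to 3 with single arrays left out. Of all probe sets, 11.4% passed in line774 with only the compared groups. With a 2-fold minimum 2% passed in line774 and 2.29% in line1135. With single arrays left out, 7.79% to 12.8% passed in line774 and 8.42% to 13.3% in line1135. Of the partners, the 1 that passed in line1135 was lost with a 2-fold minimum (0), and 1 to 2 passed with single arrays left out (2 without control replicate 3 or line1135 replicate 1). In line774 0 to 1 did (1 without control replicate 2).

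The same replicate numbers occur in each group. Deviations from the group means correlated between 0.0585 and 0.135 for same-numbered arrays, so all 9 such pairs were positive. For the 18 other pairs r ran from -0.151 to 0.0816, with both signs. These small values do not establish pairs, and the main fit has no term for them. With the replicate block, 2 neighbours passed in line1135 and 1 partner in line774, and the 4 cyclophilins passing in line774 became 3. Of all probe sets, 13.0% then passed in line774 and 14.1% in line1135.

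The count of 264 probe sets ordered like SQN ran from 313 to 451 with single arrays left out, since fewer arrays have to fall in order, with 451 and 426 without line774 replicate 1 and 2 and 443 without line1135 replicate 2. Of the 10 probe sets closest to SQN, 2 were shared with the 10 by Spearman's rho, 6 at an offset of 1, 6 at an offset of 64, 5 without shared probe sets, and 4 to 10 with single arrays left out (4 without line774 replicate 1, 6 without line1135 replicate 2). Except where a reason is given, the cause was not tested. Precision was limited by 3 arrays a group, and 4 of 12 neighbours did not exceed background on any array.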
